A study of Mus musculus with 9 samples.

Results

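The cytosolic initiation and elongation factors of translation were taken as all listed genes whose symbols begin with Eif1 to Eif6 or with Eef1 or Eef2. Eif2ak2, an interferon-induced kinase, and the Y-linked Eif2s3y were left out. This gave 62 of 18188 listed genes. RNA was measured by poly(A) RNA sequencing of CD8+ T cells, the cytotoxic T lymphocytes, taken from mouse spleens. There were 4 libraries labelled KO_Rig1 (called Rig1 KO here), a knockout of the gene for the cytosolic RNA sensor RIG-I, and 5 libraries labelled WT. The labels give no strain, sex, age, treatment or knockout allele, do not say whether the knockout was confined to a cell type, and do not tie libraries to animals. The p-values therefore rest on the variation among these libraries, and that variation may be technical.

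Translation initiation loads the small ribosomal subunit with the initiator tRNA, brings it to the capped end of the mRNA and scans to a start codon. The eIF1, eIF1A, eIF2 and eIF3 factors act on the small subunit, the eIF4 factors on the mRNA, and eIF5 and eIF5B on start codon commitment and joining of the large subunit. In elongation, eEF1A delivers aminoacyl-tRNA and eEF2 moves the ribosome along the mRNA. T cells that leave quiescence raise their protein synthesis, and cells under stress lower it through kinases that phosphorylate eIF2 alpha.

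Each library held 15496262 to 17893558 recovered reads, and 15196 to 15631 genes were above 0 in a library. The targeted gene, listed as Ddx58, had 32.8, 30.6, 35.2 and 34.5 TPM (a read count divided by the length of the gene and rescaled so that a library totals 1000000) in Rig1 KO libraries 1 to 4, against 63.9, 67.4, 67.1, 63.8 and 63.2 TPM in WT libraries 1 to 5. The groups did not overlap, and Rig1 KO libraries kept 51.1% of the WT mean (log2 fold change -0.95, SE 0.055, limma adjusted p = 4.91e-07). Reads were summed over the gene as a whole, so the deleted stretch itself was not examined. Markers of several other cell types moved with the groups. Summed B cell markers were 171 to 366 TPM in Rig1 KO libraries and 356 to 2405 TPM in WT libraries, with 0 of 11 tested markers higher and 10 lower in Rig1 KO. Natural killer markers were 505 to 546 TPM in Rig1 KO libraries and 180 to 260 TPM in WT libraries (5 of 7 higher), basophil and mast cell markers 221 to 422 TPM in Rig1 KO and 15.04 to 58.4 TPM in WT (6 of 6 higher), and platelet markers 31.2 to 39.3 TPM in Rig1 KO and 180 to 242 TPM in WT (4 of 4 lower). Erythroid markers were 183 to 326 TPM in Rig1 KO and 75.1 to 205 TPM in WT (3 of 5 higher), and myeloid markers 528 to 713 TPM in Rig1 KO and 408 to 902 TPM in WT (3 of 10 higher and 2 lower). CD4 T cell markers were 20.3 to 23.4 TPM in Rig1 KO and 19.5 to 66.0 TPM in WT (0 of 3 higher and 1 lower). The list for CD8 T cells holds Cd8a and Cd8b1 but is mostly genes of T cells in general, such as the CD3 chains. It summed to 4812 to 5382 TPM in Rig1 KO libraries and 3482 to 4034 TPM in WT libraries, and 6 of 7 were higher. No marker list had a gene at 0 in every library. The part of these cells in the results below was not tested, other than by a fit with the B cell markers as a covariate. That covariate, the mean log2(TPM + 1) of the markers, itself differed between the groups (2.57 to 3.65 in Rig1 KO, 3.54 to 5.93 in WT). With it Eif2d went from 0.35 (SE 0.096) to 0.48 (SE 0.165) and Eif4a1 from -0.24 (SE 0.057) to -0.22 (SE 0.101). Both lost their calls, so a call lost with the covariate need not be a smaller change. In bulk RNA, fewer cells of a type and less RNA per cell cannot be told apart. Rig1 KO 1 and 2 also lay apart from Rig1 KO 3 and 4. Calls of factors made with all libraries and lost without either pair are named below. Factors called only when a pair was left out are not all named.

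Most translation factors differed little between the groups, and a few differed much. A gene was tested if it had at least 1 TPM in at least 4 libraries, and called at an adjusted p below 0.05 over all 10540 tested genes (limma on log2(TPM + 1), fold change as Rig1 KO minus WT). Of the 57 factors tested, 15 were higher and 7 lower in Rig1 KO. Among all tested genes 33.5% were higher and 12.2% lower, and 26.3% and 12.3% of the factors were called in those directions, and 45.7% of all genes and 38.6% of the factors were called in either. Small changes had no fixed direction across scalings. With TPM as deposited the median change on the log2 scale was 0.13 over all tested genes and 0.05 over the factors, and with median ratio scaling (each library divided by the median ratio of its genes to their geometric means) it was 0.00 over all tested genes and -0.09 over the factors. Median ratio scaling called 7 factors higher and 14 lower, with 22.6% of all tested genes in each direction. Quantile normalization called 9 higher and 10 lower (24.2% and 20.8% of all genes), exon lengths 11 and 11 of 56 (29.6% and 15.1%), and the B cell covariate 7 and 4 (21.3% and 5.65%, 27% in either direction). The libraries of the groups did not overlap for 11 factors that were higher and 6 that were lower, against 28% and 10.1% of all genes. The size of change was smaller among the factors than among all genes, with a median absolute log2 fold change of 0.14 against 0.24 as deposited. The gap was narrower after median ratio scaling (0.168 against 0.205) and after quantile normalization (0.134 against 0.207). No factor was called with a rise of at least 0.5 on the log2 scale, which 13.1% of all genes were, and 3 were called with a fall of at least 0.5 (5.26% of the factors and 5.90% of all genes). These were Eif1, Eif2ak3 and Eif5.

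**Figure D1:**
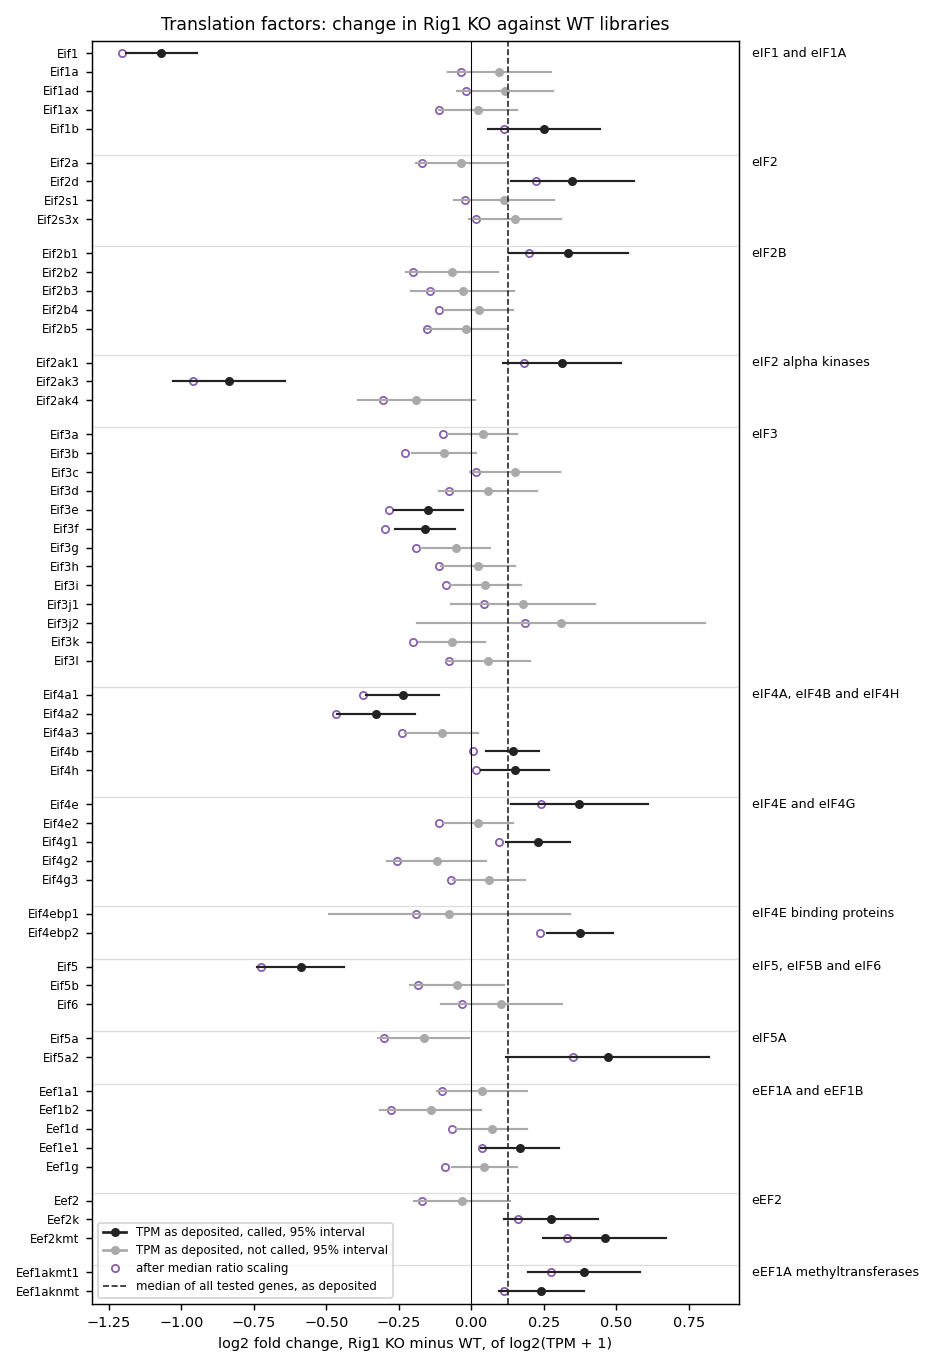
Log2 fold change (Rig1 KO minus WT, of log2(TPM + 1)) of the 57 tested translation factors by role, with 95% confidence intervals, TPM as deposited (filled, black where called) and after median ratio scaling (open); the dashed line is the median of all tested genes, 0.13. Eif1, Eif2ak3 and Eif5 lie furthest left, at -1.07, -0.83 and -0.59, and the other 54 lie between -0.33 and 0.47.

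The genomic sequence before the start of the 5 factors with the largest falls is shown so that the sequences can be compared; the call of Eif4a1 was lost in 2 other settings. The sequences are the 250 bases before the annotated start in RefSeq (GRCm38.p6), written 5′ to 3′ on the strand of the gene. Capitals mark TGACG, the core site read by the CREB and ATF factors, and TGANTCA, on either strand. TGANTCA is wider than the site read by AP-1, which is TGAGTCA or TGACTCA. The regions are chr11:100319699-100319948 on the plus strand, chr6:70844265-70844514 on the plus strand, chr12:111537851-111538100 on the plus strand, chr16:23107218-23107467 on the plus strand and chr11:69672424-69672673 on the minus strand, in the order below.
Eif1: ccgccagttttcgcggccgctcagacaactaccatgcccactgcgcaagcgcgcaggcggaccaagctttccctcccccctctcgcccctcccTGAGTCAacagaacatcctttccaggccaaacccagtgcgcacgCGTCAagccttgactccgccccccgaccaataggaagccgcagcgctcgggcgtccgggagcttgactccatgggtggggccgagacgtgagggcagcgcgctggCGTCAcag
Eif2ak3: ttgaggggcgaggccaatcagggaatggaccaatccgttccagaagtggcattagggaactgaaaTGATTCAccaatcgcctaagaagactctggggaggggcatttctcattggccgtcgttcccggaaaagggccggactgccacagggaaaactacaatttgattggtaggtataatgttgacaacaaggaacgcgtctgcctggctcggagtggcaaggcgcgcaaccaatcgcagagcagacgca
Eif5: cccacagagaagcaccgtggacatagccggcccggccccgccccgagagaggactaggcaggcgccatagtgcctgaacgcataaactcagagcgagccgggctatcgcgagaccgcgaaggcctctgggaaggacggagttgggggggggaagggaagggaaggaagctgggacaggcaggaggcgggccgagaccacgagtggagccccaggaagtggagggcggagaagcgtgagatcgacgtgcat
Eif4a2: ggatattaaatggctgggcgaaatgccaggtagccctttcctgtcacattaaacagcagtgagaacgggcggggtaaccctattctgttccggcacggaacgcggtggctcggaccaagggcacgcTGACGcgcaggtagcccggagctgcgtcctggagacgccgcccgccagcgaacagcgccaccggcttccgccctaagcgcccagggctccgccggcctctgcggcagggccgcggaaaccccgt
Eif4a1: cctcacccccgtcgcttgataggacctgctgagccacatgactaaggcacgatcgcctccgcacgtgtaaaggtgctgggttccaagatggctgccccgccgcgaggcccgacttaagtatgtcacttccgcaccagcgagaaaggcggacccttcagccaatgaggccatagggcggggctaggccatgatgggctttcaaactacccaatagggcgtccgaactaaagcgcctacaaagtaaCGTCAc

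Eif1 held TGANTCA 157 to 151 bases before its start and TGACG at 113 to 109 and at 8 to 4 bases before it. Eif2ak3 held TGANTCA at 185 to 179 bases, Eif4a2 TGACG at 124 to 120 bases and Eif4a1 TGACG at 6 to 2 bases before the start, and Eif5 held neither in these 250 bases. Among factors with a promoter entry, TGANTCA was present in 3 of 6 lower factors (Eif1, Eif2ak3 and Eif3f), 0 of 14 higher factors and 1 of 25 not called, against 6.75% of 32851 RefSeq promoters, and TGACG in 3 of 6, 5 of 14 and 13 of 25, against 17.8% of promoters. CACGTG, the E box read by MYC, was present in 2 of 6 lower, 7 of 14 higher and 3 of 25 factors not called, against 6.02% of promoters. CCAAT, the box read by NF-Y, was present in 4 of 6 lower, 5 of 14 higher and 6 of 25 factors not called, against 33.8% of promoters. Every motif was searched on both strands, in all RefSeq promoter entries for the percentages, and no marked matches overlapped. Of the 62 factors 46 had an entry, and 45 of these were tested. The TGANTCA match read TGAGTCA in Eif1 but TGATTCA in Eif2ak3 and Eif3f, which is not the AP-1 site given above. A match is a string of letters and no measured site.

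Of the 11 pairs of related factors compared within libraries, the widest difference was in start codon recognition, between Eif1 and Eif1b. Eif1 encodes the factor that keeps the scanning ribosome open until a good start codon is met. It had 797, 809, 800 and 823 TPM in Rig1 KO libraries 1 to 4, against 1829, 1752, 1707, 1550 and 1645 TPM in WT libraries 1 to 5. The Rig1 KO libraries were tight and all far below the lowest WT library. Eif1 fell to 47.6% of the WT mean (807 ± 11.6 TPM in Rig1 KO, n = 4, against 1697 ± 106 TPM in WT, n = 5, SD), a log2 fold change of -1.07 (SE 0.056, adjusted p = 2.48e-07), and lay between -1.21 and -0.81 in 22 other settings.

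Its paralog Eif1b encodes a near-identical protein. It had 120, 106, 98.0 and 93.3 TPM in Rig1 KO libraries and 89.5, 85.7, 76.0, 98.1 and 87.2 TPM in WT libraries, and the groups overlapped. Its log2 fold change was 0.25 (SE 0.087, adjusted p = 0.0360), but the call was lost in 13 of the 22 other settings, among them median ratio scaling (0.11, adjusted p = 0.391) and the leaving out of Rig1 KO 1, Rig1 KO 2, WT 1, WT 2, WT 3 or WT 5. Without Rig1 KO 1 and 2 it was 0.13 (adjusted p = 0.258). The ratio of Eif1 to Eif1b within a library, which no factor applied to a whole library can move, was 2.96 ± 0.17 on the log2 scale in Rig1 KO and 4.28 ± 0.19 in WT (SD, n = 4 and 5). The difference was -1.32 (exact permutation test over all 126 splits, two-sided, adjusted p = 0.0175 over 11 pairs of related factors; the unadjusted 0.00794 is the smallest these splits allow). The pairs were formed with the changes of their members known, so their tests are not independent of the calls above. Eif1a, Eif1ax and Eif1ad, which encode eIF1A and an eIF1A domain protein, had log2 fold changes of 0.10, 0.02 and 0.12 and were not called (adjusted p = 0.347, 0.784 and 0.226).

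Of the 3 kinases of eIF2 alpha in the list, 1 fell, 1 rose and 1 was not called. Eif2ak3 encodes PERK, the kinase in the endoplasmic reticulum membrane that senses unfolded protein. It had 7.64, 8.49, 9.08 and 8.94 TPM in Rig1 KO libraries, against 16.8, 14.99, 15.3, 14.4 and 18.7 TPM in WT libraries. No library of one group reached the other, and Rig1 KO kept 53.2% of the WT mean (log2 fold change -0.83, SE 0.087, adjusted p = 3.48e-05). With the B cell markers as a covariate the change was -0.66 (adjusted p = 0.00860).

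Eif2ak1 encodes the heme-regulated kinase HRI. It had 24.8, 24.97, 30.4 and 30.2 TPM in Rig1 KO libraries and 20.3, 19.5, 22.3, 22.9 and 24.97 TPM in WT libraries, so the groups met at their edges. It rose by 0.31 on the log2 scale (SE 0.092, adjusted p = 0.0174), which was lost without Rig1 KO 3 or without Rig1 KO 4, and without both. It overlaps Aimp2 on the other strand, which was not called (0.17, adjusted p = 0.0783). The log2 ratio of Eif2ak3 to Eif2ak1 was -1.69 ± 0.09 in Rig1 KO and -0.46 ± 0.16 in WT (difference -1.23, exact permutation test, adjusted p = 0.0175). Eif2ak4, the kinase GCN2 that senses uncharged tRNA, averaged 4.40 ± 0.64 TPM in Rig1 KO and 5.13 ± 0.24 TPM in WT (SD, n = 4 and 5). Its log2 fold change was -0.19 with TPM as deposited (adjusted p = 0.114) and -0.30 after median ratio scaling (adjusted p = 0.00907).

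Neither tested gene for a subunit of eIF2 itself, Eif2s1 and Eif2s3x, was called, and Eif2s2, for another subunit, was not among the listed genes. Of the 5 genes of eIF2B, which reloads eIF2 with GTP, 1 was higher and none lower. After median ratio scaling 1 was higher and 1 lower, the latter Eif2b2 at -0.20 (adjusted p = 0.0233). Eif2b1, the alpha subunit of eIF2B, had 40.7, 42.3, 55.0 and 50.5 TPM in Rig1 KO libraries, against 33.2, 37.7, 36.9, 39.9 and 37.0 TPM in WT libraries. Again there was no overlap, Rig1 KO 1 and 2 lay just above the WT libraries, and the change of 0.34 (SE 0.092, adjusted p = 0.0129) was not called without Rig1 KO 3 and 4. With TPM as deposited the other eIF2B genes had log2 fold changes from -0.07 to 0.03. Eif2b4, the delta subunit, had 104, 111, 110 and 114 TPM in Rig1 KO libraries and 107, 105, 100, 115 and 112 TPM in WT libraries, with full overlap.

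Eif2s1, the alpha subunit of eIF2, was at 0.11 (adjusted p = 0.255), and Eif2a, which encodes eIF2A, an initiation factor separate from the eIF2 complex, was at -0.04 (adjusted p = 0.705).

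Eif2d, which can place a tRNA on the ribosome without eIF2, had 13.3, 11.9, 14.5 and 15.9 TPM in Rig1 KO libraries and 10.8, 9.23, 10.1, 11.8 and 11.4 TPM in WT libraries. The lowest Rig1 KO library lay just above the highest WT library, and the change of 0.35 (SE 0.096, adjusted p = 0.0129) was lost in 3 other settings (quantile normalization, the B cell covariate, and without Rig1 KO 3 and 4). Eif2s3x, the X-linked gamma subunit of eIF2, had 94.3, 80.2, 93.7 and 88.3 TPM in Rig1 KO libraries and 79.6, 74.2, 74.0, 88.5 and 84.7 TPM in WT libraries, which overlapped (log2 fold change 0.15, adjusted p = 0.109; called without Rig1 KO 2, at 0.20 with adjusted p = 0.0434). Its Y-linked counterpart Eif2s3y was above 0 in every library, with 37.4, 55.8, 87.1 and 87.1 TPM in Rig1 KO libraries and 99.0, 83.1, 103, 103 and 104 TPM in WT libraries. Rig1 KO 1 and 2 were lowest, and the log2 fold change was -0.63 (adjusted p = 0.0358). With the B cell covariate Eif2s3y was at -0.39 and not called (adjusted p = 0.454). None of the other Y-linked genes examined was called lower. Ddx3y was at -0.11 (adjusted p = 0.483), Kdm5d at 0.46 (adjusted p = 0.00361) and Uty at 0.36 (adjusted p = 0.0270). In each of these, as in Eif2s3y, Rig1 KO 1 and 2 lay below Rig1 KO 3 and 4. Ddx3y had 82.9, 85.9, 127 and 110 TPM in Rig1 KO libraries. With the B cell covariate Kdm5d and Uty were not called (adjusted p = 0.0631 and 0.320).

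The 13 listed genes of eIF3, the scaffold on the small subunit, do not include Eif3m. They moved within a narrow range, from -0.16 to 0.31 on the log2 scale. None was higher, and Eif3e and Eif3f were lower. After median ratio scaling 4 were lower, with Eif3b at -0.23 (adjusted p = 0.00517) and Eif3k at -0.20 (adjusted p = 0.0271) added. Eif3f had 336, 350, 348 and 371 TPM in Rig1 KO libraries, against 387, 410, 397, 385 and 384 TPM in WT libraries. There was no overlap, yet the fall was 0.16 on the log2 scale (SE 0.047, adjusted p = 0.0169) and was lost without Rig1 KO 1, without Rig1 KO 1 and 2, and with the B cell covariate. Eif3e had 112, 118, 116 and 118 TPM in Rig1 KO libraries and 135, 136, 129, 126 and 117 TPM in WT libraries, where the WT library 5 fell within the Rig1 KO range. It fell by 0.15 on the log2 scale (adjusted p = 0.0450), a call lost on leaving out any of 8 of the 9 libraries or either pair of Rig1 KO libraries. Eif3j2, a near copy of Eif3j1, had as few as 16 reads in a library and the widest interval of the group. As a share of all transcripts per exon length, the eIF3 genes made up 0.352% ± 0.0017 in Rig1 KO and 0.362% ± 0.013 in WT (SD, n = 4 and 5). This share includes Eif3h, at 1157 TPM in Rig1 KO and 1169 TPM in WT when recomputed with exon lengths. That level is set too high if reads in introns were counted.

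The eIF4A helicases unwind the leader of the mRNA for scanning, and with TPM as deposited the genes for its main forms, Eif4a1 and Eif4a2, fell, though Eif4a1 did not after quantile normalization. Eif4a2 had 1401, 1378, 1564 and 1446 TPM in Rig1 KO libraries, against 1979, 1774, 1821, 1823 and 1696 TPM in WT libraries. All Rig1 KO libraries lay below all WT libraries, and Eif4a2 fell by 0.33 on the log2 scale (SE 0.061, adjusted p = 0.00144), kept in 21 of 22 other settings and lost under quantile normalization (-0.18). The gene overlaps Rfc4 on the other strand. Eif4a1 had 1049, 1042, 1179 and 1146 TPM in Rig1 KO libraries, against 1336, 1248, 1294, 1365 and 1257 TPM in WT libraries, again without overlap. It fell by 0.24 on the log2 scale (SE 0.057, adjusted p = 0.00624), but quantile normalization gave 0.01 (adjusted p = 0.907) and the B cell covariate -0.22 (adjusted p = 0.135). Eif4a3, the helicase of the exon junction complex, was at -0.10 and not called with TPM as deposited (adjusted p = 0.168). It was called lower after median ratio scaling (-0.24, adjusted p = 0.00205) and with exon lengths (-0.14, adjusted p = 0.0363). Within libraries the ratio of Eif4a1 to Eif4a3 differed by -0.13 on the log2 scale (3.504 ± 0.046 in Rig1 KO, 3.64 ± 0.051 in WT, exact permutation test, adjusted p = 0.0175). The ratio of Eif4a2 to Eif4a1 differed by -0.09 and did not pass (adjusted p = 0.0546, exact permutation test). Eif4b and Eif4h, cofactors of the helicase, rose by 0.14 and 0.15 with TPM as deposited (adjusted p = 0.0155 and 0.0367) and were at 0.0059 and 0.02 after median ratio scaling. The Eif4h call was also lost on leaving out any of Rig1 KO 1 to 4 or WT 1 to 3 or either Rig1 KO pair, and that of Eif4b without Rig1 KO 3 and 4.

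Of the 5 tested genes of eIF4E and eIF4G, 2 were higher and none lower, and after median ratio scaling 1 was higher and 1 lower. Eif4e encodes the cap-binding protein. It had 22.2, 19.5, 25.8 and 23.1 TPM in Rig1 KO libraries and 15.5, 14.6, 17.3, 20.4 and 18.6 TPM in WT libraries. Only the lowest Rig1 KO library fell within the WT range, and the change was 0.37 (SE 0.107, adjusted p = 0.0155), kept in 21 of 22 other settings and lost without Rig1 KO 3 and 4. The ratio of Eif4e to its homolog Eif4e2 was higher by 0.37 on the log2 scale (-1.15 ± 0.18 in Rig1 KO and -1.51 ± 0.14 in WT, exact permutation test, adjusted p = 0.0374). Eif4g1, the scaffold that joins the cap-binding protein to eIF4A and eIF3, averaged 278 ± 9.22 TPM in Rig1 KO and 237 ± 10.96 TPM in WT (SD, n = 4 and 5). Their libraries did not overlap (log2 fold change 0.23, SE 0.050, adjusted p = 0.00343), and the call was lost after median ratio scaling (0.09, adjusted p = 0.0892). Eif4g2, an eIF4G relative that lacks the cap-binding partner's site, had 679, 658, 840 and 779 TPM in Rig1 KO libraries and 840, 773, 819, 819 and 746 TPM in WT libraries. The first and second Rig1 KO libraries lay below all WT libraries and the other two within them, and the gene was not called with TPM as deposited (-0.12, adjusted p = 0.227). It was called lower without Rig1 KO 3 and 4 (-0.26, adjusted p = 0.0143) and after median ratio scaling (-0.26, adjusted p = 0.00696), and was at 0.02 without Rig1 KO 1 and 2. The ratio of Eif4g2 to Eif4g1 differed by -0.35 on the log2 scale (1.40 ± 0.13 in Rig1 KO, 1.75 ± 0.10 in WT, exact permutation test, adjusted p = 0.0291).

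Eif4ebp2, a binding protein that holds eIF4E away from eIF4G until mTORC1 phosphorylates it, was the only risen factor called in all 22 other settings. It had 174, 168, 184 and 176 TPM in Rig1 KO libraries, against 136, 128, 130, 136 and 144 TPM in WT libraries. The groups did not overlap, and the mean was 175 ± 6.72 TPM in Rig1 KO and 135 ± 6.29 TPM in WT (log2 fold change 0.38, SE 0.051, adjusted p = 1.94e-04), with a range of 0.24 to 0.49 over the settings. Its paralog Eif4ebp1 averaged 5.89 ± 1.06 TPM in Rig1 KO and 6.41 ± 1.99 TPM in WT and was not called (-0.08, adjusted p = 0.764). The ratio of the pair did not pass either (0.46, exact permutation test, adjusted p = 0.107).

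**Figure D2:**
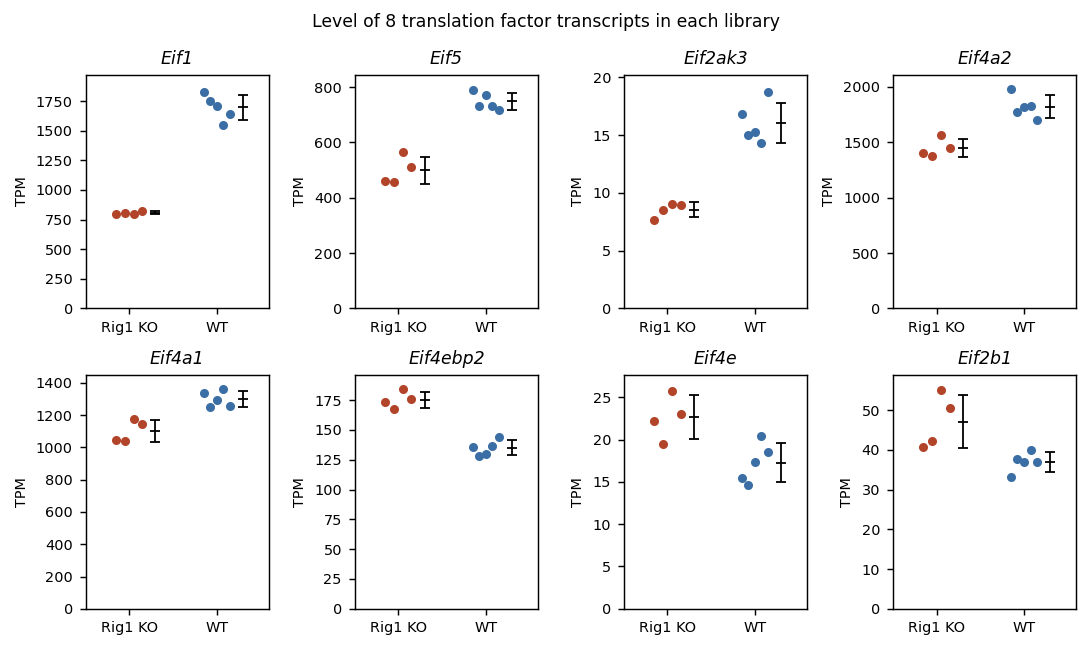
TPM of 8 translation factor transcripts in each library (points), with Rig1 KO left of WT, and mean and SD beside each group (n = 4 and 5). Eif1 lies between 797 and 823 TPM in Rig1 KO and between 1550 and 1829 TPM in WT.

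Eif5, the partner of eIF2 that triggers GTP hydrolysis when the start codon is met, was the remaining gene with a large fall. It had 461, 459, 564 and 512 TPM in Rig1 KO libraries, against 788, 730, 771, 733 and 718 TPM in WT libraries. No Rig1 KO library reached a WT library. It kept 66.7% of the WT mean (log2 fold change -0.59, SE 0.068, adjusted p = 6.95e-05), from -0.73 to -0.44 in the other settings, and Eif1 and Eif5 were both lower when the B cell markers were a covariate (-1.13 with adjusted p = 5.82e-05 and -0.57 with adjusted p = 0.00804).

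Eif5b, the GTPase of subunit joining, was at -0.05 (adjusted p = 0.603). The ratio of Eif5 to Eif5b was 3.52 ± 0.11 in Rig1 KO and 4.06 ± 0.036 in WT on the log2 scale, a difference of -0.54 (exact permutation test, adjusted p = 0.0175). Eif6, which keeps the large subunit from joining early, was at 0.10 (adjusted p = 0.391). Eif5a, the hypusinated factor that helps ribosomes through stalls, had 686, 669, 769 and 801 TPM in Rig1 KO libraries and 778, 777, 791, 892 and 855 TPM in WT libraries, overlapping (-0.16, adjusted p = 0.0791). It was called lower after median ratio scaling (-0.30, adjusted p = 7.65e-04), with exon lengths (-0.20, adjusted p = 0.0164), without Rig1 KO 4 (-0.21, adjusted p = 0.0447) and without Rig1 KO 3 and 4 (-0.27, adjusted p = 0.0197), and quantile normalization gave 0.06. Its paralog Eif5a2 had 6.57, 5.59, 8.86 and 9.64 TPM in Rig1 KO libraries and 4.37, 5.46, 4.54, 6.80 and 4.80 TPM in WT libraries. The rise of 0.47 (SE 0.158, adjusted p = 0.0319) was the largest of the list and was kept in 12 of 22 other settings, not without Rig1 KO 3, Rig1 KO 4, WT 1, WT 3 or WT 5, and the libraries of the groups overlapped. Without Rig1 KO 3 and 4 it was 0.20 (adjusted p = 0.348) and without Rig1 KO 1 and 2 it was 0.74 (adjusted p = 0.00565). The ratio of Eif5a to Eif5a2 differed by -0.71 on the log2 scale (6.61 ± 0.24 in Rig1 KO, 7.32 ± 0.21 in WT, exact permutation test, adjusted p = 0.0175).

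**Figure D3:**
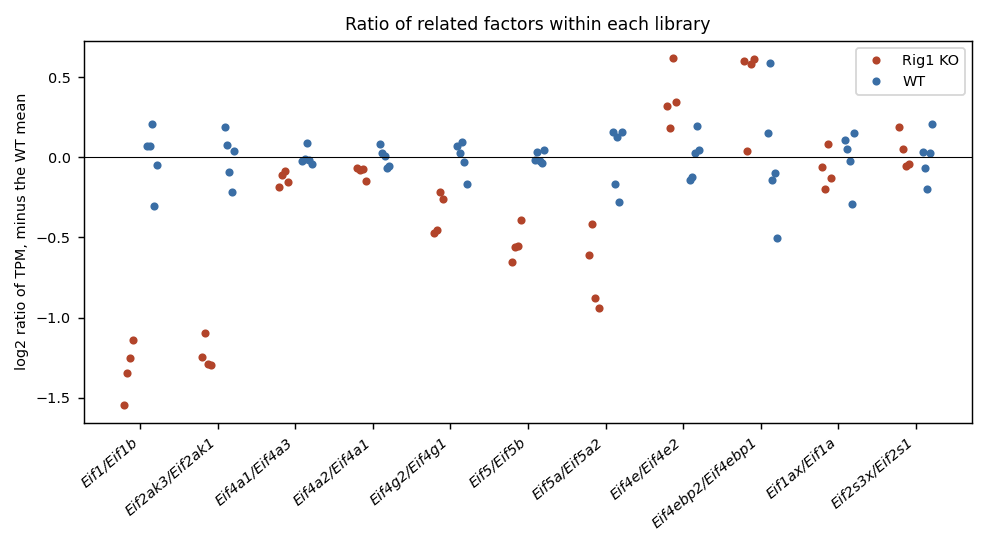
Log2 ratio of TPM of 11 pairs of related factors within each library, minus the WT mean of the pair, with Rig1 KO points left of WT points. The first pair, Eif1 over Eif1b, differed by -1.32, and 7 pairs passed an exact permutation test at an adjusted p below 0.05. Pairs were chosen with the earlier results known.

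The core elongation factors were the most abundant of the list and were not called. Levels of different genes were set side by side by TPM recomputed with exon lengths. Whether reads in introns were counted is not known, and if they were, genes with long introns such as Eif3h are set too high. On this scale Eef1a1 stood at 18561 ± 377 TPM in Rig1 KO and 18596 ± 1295 TPM in WT, and Eef2 at 5220 ± 307 TPM in Rig1 KO and 5475 ± 407 TPM in WT (SD, n = 4 and 5). Below them Eif3h and Eef1g were at 1157 ± 28.2 and 1122 ± 48.8 TPM in Rig1 KO and 1169 ± 81.3 and 1116 ± 62.4 TPM in WT, and did not differ from each other beyond their spread. As deposited, Eef1a1 had 11578, 11639, 12469 and 12445 TPM in Rig1 KO libraries and 11718, 12420, 11973, 12028 and 10562 TPM in WT libraries, and Eef2 had 7938, 8577, 7865 and 8507 TPM in Rig1 KO libraries and 8081, 8262, 7627, 8644 and 9458 TPM in WT libraries. Both genes overlapped between the groups. The log2 fold change of Eef1a1 was 0.04 (adjusted p = 0.689) and of Eef2 -0.03 (adjusted p = 0.760), and both changed sign with another scaling, Eef1a1 to -0.10 after median ratio scaling and Eef2 to 0.13 after quantile normalization. Eef1a1 has many processed copies in the genome, and the sources used here do not say how reads shared with them were assigned. The eEF1B subunit genes Eef1b2, Eef1d and Eef1g, which reload eEF1A with GTP, were at -0.14, 0.07 and 0.05 and not called (adjusted p = 0.170, 0.317 and 0.485). The 59 factors with an exon length made up 3.496% ± 0.049 of exon-length TPM in Rig1 KO and 3.61% ± 0.13 in WT, and the libraries overlapped.

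**Figure D4:**
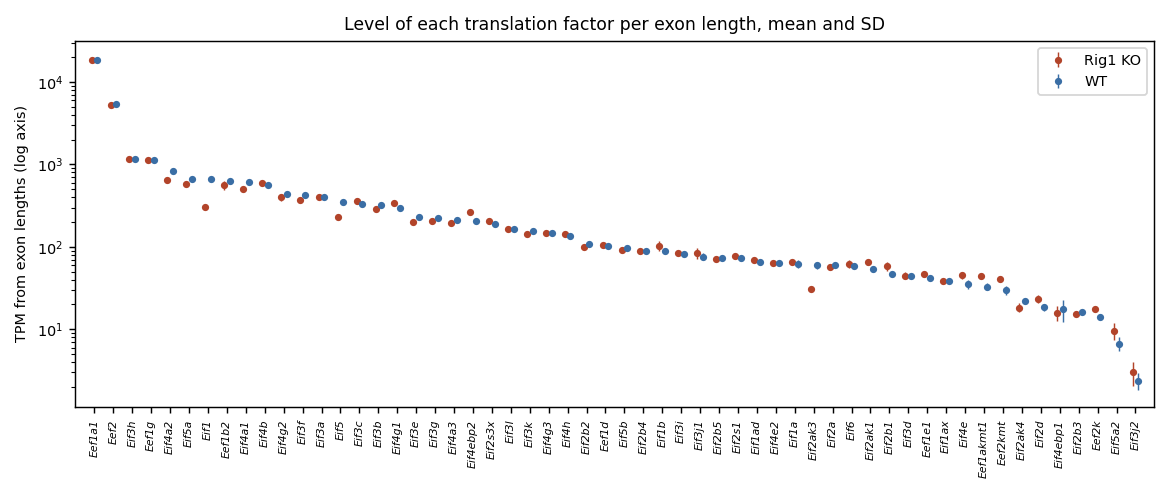
TPM recomputed with exon lengths for the 56 tested factors with an exon length, on a log axis, mean and SD, with Rig1 KO left of WT, ordered by the WT mean. Eef1a1 and Eef2 lie highest, and the largest gaps between groups are at Eif1, Eif5 and Eif2ak3.

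Of the tested enzymes that modify elongation factors, Eef2k, Eef2kmt, Eef1akmt1 and Eef1aknmt rose. Eef2k, the kinase that inhibits eEF2, had 5.60, 5.61, 5.32 and 5.61 TPM in Rig1 KO libraries, against 4.33, 4.61, 3.95, 4.78 and 4.36 TPM in WT libraries, without overlap (0.28, SE 0.073, adjusted p = 0.0107; not called after median ratio scaling). Eef2kmt, a lysine methyltransferase of eEF2, had 27.5, 23.4, 27.8 and 23.7 TPM in Rig1 KO libraries and 21.0, 17.2, 20.1, 15.5 and 18.1 TPM in WT libraries (0.46, SE 0.096, adjusted p = 0.00282). Eef1akmt1, a lysine methyltransferase of eEF1A, had 5.33, 5.04, 6.12 and 4.87 TPM in Rig1 KO libraries and 4.001, 4.24, 3.38, 3.85 and 3.74 TPM in WT libraries (0.39, SE 0.087, adjusted p = 0.00446). Both were without overlap and were kept after median ratio scaling, and the Eef2kmt call was lost with the B cell covariate. So were those of Eef2k (0.33, adjusted p = 0.0880) and Eef1aknmt (0.23, adjusted p = 0.169), which were lost under quantile normalization too. Eef1aknmt, a methyltransferase of eEF1A, had 17.0, 19.3, 18.2 and 17.3 TPM in Rig1 KO libraries, against 14.9, 14.7, 14.8, 16.6 and 14.1 TPM in WT libraries, without overlap. Eef1aknmt and Eef1e1 rose by 0.24 and 0.17 (adjusted p = 0.0124 and 0.0426), and neither was called after median ratio scaling. The Eef1e1 call, of a gene for a protein of the synthetase complex, was also lost without Rig1 KO 1, 3 or 4 or WT 1, 2, 3 or 4 or either Rig1 KO pair. Eef1a2, Eef1akmt3, Eif1ad6, Eif4a3l2 and Eif4e1b were below the level needed for the test, with means of at most 0.243 TPM in either group. A total of 12 factors overlapped another listed gene, among them Eif2d, Eef2kmt and Eif4a2, and whether reads were counted by strand was not stated, so reads of such pairs cannot be told apart.

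**Figure D5:**
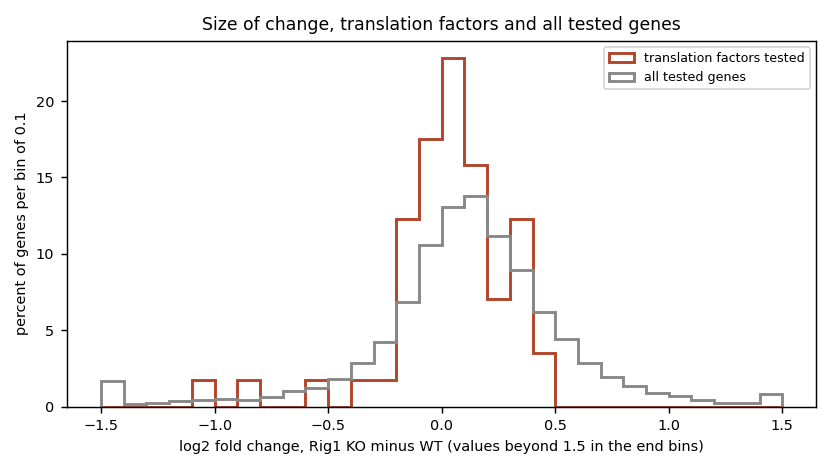
Percent of genes per bin of 0.1 in log2 fold change (Rig1 KO minus WT), for the 57 translation factors tested and all 10540 tested genes, with values beyond 1.5 in the end bins. With TPM as deposited the factors lie closer to 0, with a median absolute change of 0.14 against 0.24 (0.168 against 0.205 after median ratio scaling).

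Beyond the factors themselves, of 10 tested genes of the stress response that acts through eIF2, 2 were higher and 5 lower (1 and 5 after median ratio scaling). Over all tested genes 33.5% were higher and 12.2% lower, and 22.6% in each direction after median ratio scaling. No list of genes here or below was tested as a whole. Ppp1r15a, the stress-induced subunit that dephosphorylates eIF2 alpha, had 210, 218, 182 and 195 TPM in Rig1 KO libraries, against 1539, 1532, 1503, 1402 and 1448 TPM in WT libraries (log2 fold change -2.88, SE 0.062, adjusted p = 2.71e-10). Atf4, the transcription factor whose mRNA is translated when eIF2 alpha is phosphorylated, had 524, 512, 523 and 536 TPM in Rig1 KO libraries, against 1168, 1130, 1098, 1086 and 1187 TPM in WT libraries (-1.11, SE 0.047, adjusted p = 4.60e-08). Neither pair of groups overlapped. Atf3 averaged 0.327 ± 0.11 TPM in Rig1 KO and 12.1 ± 5.38 TPM in WT (-3.23, adjusted p = 3.07e-06), and Trib3 and Sesn2 had log2 fold changes of -0.69 and -0.39 (adjusted p = 0.0162 and 0.00895). Dnajc3, an inhibitor of PERK, and Impact, an inhibitor of GCN2, were higher by 0.33 and 0.24 (adjusted p = 0.00466 and 0.00815). The calls of Trib3 and Impact were lost without Rig1 KO 3 and 4, that of Sesn2 without Rig1 KO 1 and 2, and those of Trib3, Sesn2, Dnajc3 and Impact with the B cell covariate.

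Ribosomal protein genes were mostly not called: 1 of 45 tested large subunit genes was higher and 7 lower, and 0 of 32 small subunit genes higher and 7 lower, with median changes of -0.22 and -0.23. Median ratio scaling called 18 large and 9 small subunit genes lower, while quantile normalization called 3 higher and 1 lower in each list. For all tested genes, 33.5% were higher and 12.2% lower as deposited, and 22.6% each way after median ratio scaling. Quantile normalization called 24.2% of all tested genes higher and 20.8% lower. With TPM as deposited, Rpl38, Rpl34 and Rpl28 had log2 fold changes of -0.62, -0.50 and -0.35, Rps13, Rps9, Rps12 and Rps2 of -0.37, -0.30, -0.47 and -0.19, and Rpl7l1, a ribosome biogenesis relative, of 0.44 (adjusted p from 0.00112 for Rpl7l1 to 0.0368 for Rpl28). For the lower genes named other than Rps2, the lowest values were those of Rig1 KO 3 and 4. Rps2 had 3593, 3504, 3086 and 3647 TPM in Rig1 KO libraries 1 to 4. Rpl38 had 229, 208, 105 and 132 TPM in Rig1 KO libraries 1 to 4, against 255, 264, 259, 215 and 248 TPM in WT libraries, and Rps12 had 1530, 1803, 1015 and 1127 TPM in Rig1 KO libraries, against 1862, 2060, 1994, 1651 and 1693 TPM in WT libraries. Without Rig1 KO 3 and 4, limma called 0 large and 0 small subunit genes lower (0 and 3 at an unadjusted p under 0.05), with medians of -0.04 and 0.0012. Without Rig1 KO 1 and 2 it called 31 large and 22 small subunit genes lower, with medians of -0.37 and -0.54. Leaving out 1 library gave 0 to 21 large and 2 to 12 small subunit genes lower, and 0 large ones without Rig1 KO 3, Rig1 KO 4 or WT 2 (5, 6 and 7 at an unadjusted p under 0.05). Of the 12 tested termination, recycling and poly(A) binding factors, 3 were higher and 2 lower (1 and 5 after median ratio scaling), among them Mcts1, a reinitiation factor, at 0.59 (adjusted p = 2.09e-05) and Etf1, the release factor eRF1, at -0.39 (adjusted p = 0.00281). Hbs1l, a ribosome rescue GTPase, was at -0.41 (adjusted p = 0.00112) and Paip2, an inhibitor of poly(A) binding protein, at 0.27 (adjusted p = 0.00563). The calls of Etf1 and Paip2 were lost with the B cell covariate (adjusted p = 0.107 and 0.0811). That of Paip2 was also lost after median ratio scaling (adjusted p = 0.0825).

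Of 22 genes that feed mTORC1 and MAP kinase signals to translation, 9 were higher and 1 lower (4 and 3 after median ratio scaling). The shares of all tested genes, to set beside each list here, were 33.5% higher and 12.2% lower. After median ratio scaling they were 22.6% each way. Ddit4, an inhibitor of mTORC1 induced by stress and glucocorticoids, averaged 926 ± 210 TPM in Rig1 KO and 201 ± 32.0 TPM in WT (2.19, SE 0.148, adjusted p = 1.57e-06), and Rptor, the mTORC1 scaffold, rose by 0.41 (adjusted p = 0.00301). The S6 kinase gene Rps6kb1 and the RSK gene Rps6ka1 rose by 0.31 and 0.39 (adjusted p = 0.00227 and 4.89e-04). Among the 14 tested DEAD box and other helpers, 5 were higher and 1 lower (2 and 3 after median ratio scaling), with Habp4, Angel2 and Ddx6 at 0.49, 0.31 and 0.25 (adjusted p = 1.77e-04, 0.00243 and 0.0141). The lower one was Ddx3x, an X-linked helicase for structured leaders, at 460 ± 33.6 TPM in Rig1 KO and 770 ± 33.6 TPM in WT (-0.74, SE 0.060, adjusted p = 5.27e-06). Without Rig1 KO 3 and 4, 3 helpers were higher and 2 lower, and 4 mTORC1 and MAP kinase genes were higher and 1 lower. With the B cell covariate, 1 helper was higher and 1 lower, and 4 mTORC1 and MAP kinase genes were higher and 0 lower (0 at an unadjusted p under 0.05). That covariate called 21.3% of all tested genes higher and 5.65% lower. For the 23 cytosolic aminoacyl-tRNA synthetase genes, 2 were higher and 1 lower, Aars and Mars1 at 0.37 and 0.24 and Cars at -0.24 (adjusted p = 0.00244, 0.00951 and 0.00794), against 1 higher and 6 lower after median ratio scaling. Of the 9 mitochondrial translation factors 5 were higher and none lower, with Gfm2 at 0.47 (adjusted p = 0.00171), Mtrf1l at 0.38 (adjusted p = 0.00119), Mtif3 at 0.64 (adjusted p = 0.00106) and Mtif2 at 0.42 (adjusted p = 4.32e-04), and median ratio scaling called 5 higher and 2 lower. Of the 8 genes for the hypusine of eIF5A and the diphthamide of eEF2, 3 were higher and 1 lower. Dph7, Dph2 and Dhps rose by 0.84, 0.51 and 0.38 (adjusted p = 4.28e-05, 0.00149 and 0.00142), and Dph3 fell by 0.88 on the log2 scale (adjusted p = 5.54e-06). Of the genes named in this paragraph, Rptor, Rps6kb1, Angel2, Ddx6 and Cars lost their calls with the B cell covariate. Ddx6 and Mars1 lost theirs without Rig1 KO 3 and 4 and after median ratio scaling.

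Of the 57 tested factors, 31 were lower in both Rig1 KO 1 and Rig1 KO 2 than in both Rig1 KO 3 and Rig1 KO 4 (54.4%, against 53.7% of all tested genes), among them Eif5. Eif1 was not. Without Rig1 KO 3 and 4, 7 factors were higher and 9 lower, and without Rig1 KO 1 and 2, 18 were higher and 6 lower. The counts of all tested genes moved the same way. They were 2120 higher and 1383 lower without Rig1 KO 3 and 4, and 3758 higher and 988 lower without Rig1 KO 1 and 2.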

How the data were processed

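Poly(A) RNA sequencing of mouse splenic CD8+ T cells gave 4 Rig1 KO and 5 WT libraries, grouped by their titles. The deposited values are TPM, per the file headers. The submitters' processing notes name fastp, featureCounts and the build mm39 (GRCm39), with no versions. For the aligner, the annotation and the gene lengths, the method is not given in the sources used here. Reads recovered from the TPM ratios (relative tolerance 2e-12) gave lengths within 1% of the genomic span, introns included, for 54 of 56 factors compared. The TPM of different genes are therefore not comparable as deposited, and levels between genes use exon lengths (GENCODE, GRCm38), which set genes with long introns too high if reads in introns were counted, which is not stated.

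The test was limma 3.58.1 (R 4.3.3) on log2(TPM + 1) of genes that reached 1 TPM in 4 or more libraries (mean-variance trend, two-sided, Benjamini-Hochberg adjustment over all tested genes, threshold 0.05). The 1 added before taking logs understates the change of low genes. On simulated data the test recovered 100% of genes changed by 2 fold, 94.0% of genes changed by 1.5 fold and called 0.0587% of unchanged genes. The simulated reads were independent, with the same dispersion for every gene and few changed genes. They held no shift in cell type markers and no split between Rig1 KO pairs. The simulation therefore cannot give the rate of false calls in these data. Other settings were pseudocounts, filters, scalings, libraries left out, a replicate block, a B cell marker covariate and exon lengths, 22 in all. The last and the leaving out of Rig1 KO pairs were chosen after seeing the data. Within-library ratios of related factors were compared by an exact permutation test over 126 splits. Values were listed per library for the 10 called factors with the largest change in each direction and the most abundant of each role group; the remaining factors are given by values or ranges, and of each pathway list up to 4 genes with the smallest p are named, and of the stress response list also Trib3, Sesn2 and Impact, chosen after their values were seen. The members, gene lists and pairs were chosen with earlier results of these data known. Depth was 15496262 to 17893558 recovered reads, lower bounds where reads of a gene share a divisor.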

Additional observations from a re-analysis of the deposited data

Results flagged for a closer look

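The lowest and highest library of each group were examined for 29 genes, 58 groups in all, and 1 lay far from its group. Eef2k, the kinase of eEF2, had 5.3248 TPM in Rig1 KO 3, against 5.602 to 5.6143 TPM in the other Rig1 KO libraries. Chance gives about 1 in 20 groups, and Rig1 KO 3 still lay above every WT library.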

How the results depend on the processing

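Across 22 other settings, Eif1, Eif2ak3 and Eif5 stayed lower and Eif4ebp2 higher at an adjusted p below 0.05. Median ratio scaling called 7 factors higher and 14 lower (median -0.092) and 2384 of all genes lower. Quantile normalization called 9 higher (median -0.013) and 2195 of all genes lower. The B cell covariate called 7 higher and 4 lower (2245 and 596 of all genes). Leaving out Rig1 KO 3 and 4 left 7 factors and 2120 genes higher, and exon lengths called 11 lower. Leaving out 1 library gave 11 to 16 factors higher, 5 to 8 lower, a median from 0.031 to 0.056, 2795 to 3592 genes higher, 1098 to 1282 lower and -0.98 to -0.91 for Ddx58.

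The sign turned in small values. Median ratio scaling gave -0.11 for Eif2b4 and -0.10 for Eef1a1. Quantile normalization gave -0.079 for Eif2b4, 0.014 for Eif4a1, 0.098 for Eif4g2, 0.062 for Eif5a, -0.037 for Eef1a1 and 0.13 for Eef2. The B cell covariate gave -0.036 for Eef1a1 and 0.13 for Eef2. Leaving out 1 library gave -0.00084 to 0.049 for Eif2b4 (lowest without WT 3), -0.00082 to 0.058 for Eef1a1 and -0.065 to 0.012 for Eef2 (both turned without WT 5). Without WT 4 and 5 Eef1a1 was at -0.00099 and Eef2 at 0.041. Without Rig1 KO 3 and 4 Eif2b4 was at -0.0045 and Eef1a1 at -0.014, without Rig1 KO 1 and 2 Eif4g2 was at 0.018, and exon lengths gave -0.011 for Eif2b4 and -4.8e-05 for Eef1a1. The cause was not tested. The labels number both groups, but same-numbered libraries did not deviate together (correlations -0.0996 to 0.0972). A replicate block called 12 factors higher and 7 lower, gave a median of 0.044 and put Eef1a1 at -0.00082 and Eef2 at 0.012.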
